A study of Rattus norvegicus with 16 samples.

Results

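The G1 cyclins, their kinases and the CDK inhibitors were taken as a list of 10 genes: Ccnd1, Ccnd2, Ccnd3, Ccne1, Ccne2, Cdk2, Cdk4, Cdk6, Cdkn1a and Cdkn1b. Each was read from the array probe that names that gene alone, and 9 of the 10 had exactly 1 such probe among the 18166 genes named this way on the array. Ccnd3, which encodes cyclin D3, had no single-gene probe and was not analysed here.

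The samples were carotid body cells of Wistar rats of 9-11 weeks. The carotid body is a small organ in the neck that senses arterial oxygen. Cells were dispersed from mixed bilateral carotid bodies and sorted on an antibody to HNK-1, a sugar epitope of neural surface proteins. The 4 groups were glomus cells (sorted HNK-1 negative) from rats kept in hypoxic chambers for 3 days, glomus cells from rats in ambient air, neuroblasts (sorted HNK-1 positive) from hypoxic rats and neuroblasts from rats in ambient air. Each group had 4 arrays, each made from 500 pg of total RNA. All rats were of 1 strain, with no transgene named in the labels, and nothing in the labels ties the arrays of a group to different rats or pools. The p-values therefore measure only the spread between these samples, which may be technical.

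Progress through G1 is driven by D-type cyclins with Cdk4 or Cdk6, which phosphorylate the retinoblastoma protein and release E2F transcription factors. E-type cyclins with Cdk2 then carry the cell into DNA synthesis. The inhibitors p21 (Cdkn1a) and p27 (Cdkn1b) bind these cyclin-kinase complexes and hold cells in G1. The carotid body is known to enlarge in sustained hypoxia, in part by cell division.

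Array medians lay between 4.71 and 4.74 in hypoxic glomus cells, against 4.42 to 4.64 in normoxic glomus cells, and between 4.71 and 4.94 in hypoxic neuroblasts, against 4.40 to 4.61 in normoxic neuroblasts (log2). The array least like its own group was hypoxic neuroblast replicate 1 (mean correlation across probes 0.914), which also had the highest median. Glomus cell markers were bright in all 16 arrays, with a mean over 9 markers between 9.33 and 10.85. This mean was still lower in neuroblasts, at 9.76 to 10.05 in normoxia, against 10.74 to 10.85 in normoxic glomus cells. Of these 9 markers, 5 passed as lower in normoxic neuroblasts and 0 as higher, against 0.828% of all probes that passed as lower. In hypoxia 0 of these 9 glomus cell markers passed, with 6 at an unadjusted p under 0.05. Their mean ran from 9.33 to 10.22 in hypoxic neuroblasts, against 10.37 to 10.56 in hypoxic glomus cells. In normoxia 5 of 9 neuroblast markers were higher in neuroblasts than in glomus cells (median difference 1.25), against 0.996% of all probes. In hypoxia 0 of 9 passed (median difference 0.35, with 2 at an unadjusted p under 0.05), against 0.138% of all probes that passed as higher. The labels name no processing batch, and none was tested.

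In glomus cells, hypoxia moved 4 of the 9 measured genes past the test, where 18.9% of all 30429 probes passed. Ccnd1 was the 1 gene that rose, and Ccnd2, Cdk2 and Cdk6 fell, against 9.37% of probes that passed as higher and 9.50% as lower. In neuroblasts, 3 of the 9 passed, where 32.1% of all probes did. Ccnd1 again rose, and Ccnd2 and Cdkn1b fell, against 18.4% of probes that passed as higher and 13.7% as lower. All 9 genes lie among the brighter 50% of probes by mean level, and with the dimmer 50% of probes left out 35.9% of probes passed in glomus cells and 48.5% in neuroblasts, with the same counts of the 9 genes. The shares of the 9 are thus not far from the background in glomus cells, and at or below it in neuroblasts. A gene passed at an adjusted p under 0.05 in limma, adjusted over all probes. The median difference of the 9 genes was -0.21 in glomus cells and -0.42 in neuroblasts, beside 0.17 and 0.25 over all probes and 0.02 and -0.03 over the brighter 50% (log2, hypoxic minus normoxic).

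**Figure D1:**
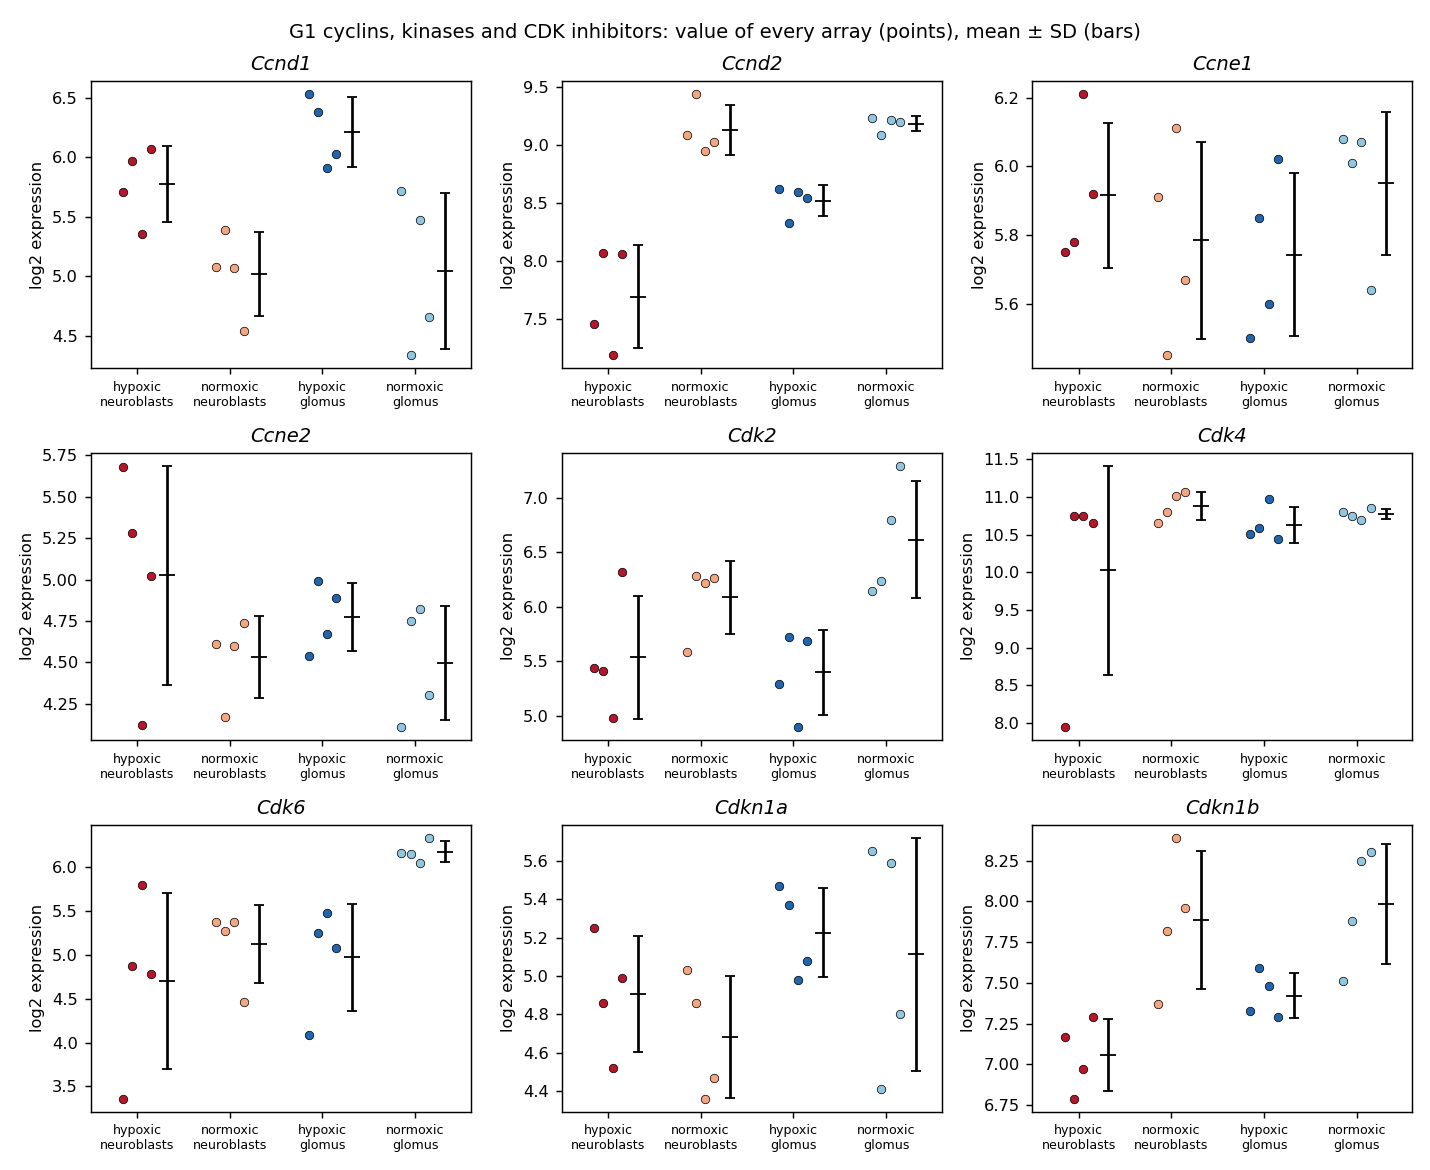
Log2 expression of the 9 measured genes in each array. Points are the 4 arrays of a group in replicate order and bars give the mean ± SD; each panel has its own axis range. Ccnd2 shows all 8 hypoxic arrays below all 8 normoxic arrays, and Cdk4 shows 1 hypoxic neuroblast array at 7.95 far under the other 15.

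Among the D cyclins, Ccnd1 (probe 17638903; GRCr8, chr1:209518288-209527986), which encodes cyclin D1, was at 6.53, 6.38, 5.91 and 6.03 in hypoxic glomus cells, against 5.72, 4.34, 5.47 and 4.66 in normoxic glomus cells (log2). All 4 hypoxic arrays lay above all 4 normoxic arrays, and among the normoxic arrays replicates 1 and 3 were above replicates 2 and 4. The rise was 1.17 ± 0.28 (difference ± limma standard error, adjusted p = 0.00692), a 2.24-fold difference. In neuroblasts Ccnd1 was at 5.71, 5.97, 5.36 and 6.07 in hypoxia, against 5.08, 5.39, 5.07 and 4.54 in normoxia. Here the groups overlapped, since hypoxic replicate 3 lay just under normoxic replicate 2. That normoxic array also stood apart in fibroblast markers (mean of 6 at 8.92, against 5.54 to 6.02 in its group) and pericyte markers (7.71, against 6.53 to 6.72). The difference was 0.76 ± 0.28 (adjusted p = 0.0475). That call ended in 17 of 27 alternatives, with an adjusted p of up to 0.257 and a difference of 0.47 with each array centred on its median. It ended without any 1 of normoxic neuroblast replicates 1, 3 and 4, hypoxic neuroblast replicates 1, 2 and 4, the 4 hypoxic glomus arrays or normoxic glomus replicate 4. The rise in glomus cells passed in all 27, with a difference between 0.93 and 1.39.

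Markers of other cell types of the carotid body were read beside Ccnd1. In normoxic glomus cells the mean log2 level of 7 endothelial markers was 6.40, 5.01, 6.02 and 5.12 in replicates 1 to 4, and that of 10 macrophage markers was 6.41, 5.03, 5.61 and 4.78. In this group the arrays with more endothelial and macrophage signal were thus the arrays with the higher Ccnd1. Fibroblast means were also highest in these arrays. In hypoxic glomus cells replicate 1 had the highest Ccnd1 (6.53), with the lowest endothelial mean (5.73) and a macrophage mean of 6.30. Mean Ccnd1 was 5.02 in normoxic neuroblasts and 5.05 in normoxic glomus cells. The endothelial means of these groups were 4.29 and 5.64, and the macrophage means 4.17 and 5.46. Endothelial means ran from 5.73 to 6.53 in hypoxic glomus cells, against 5.01 to 6.40 in normoxic glomus cells, and reached 5.15 in hypoxic neuroblasts, against 4.56 in normoxic neuroblasts, where every hypoxic array lay above every normoxic array. Macrophage means ran from 5.90 to 6.39 in hypoxic glomus cells, against 4.78 to 6.41 in normoxic glomus cells, and from 4.42 to 4.98 in hypoxic neuroblasts, against 3.93 to 4.57 in normoxic neuroblasts. With hypoxia, 1 of 7 endothelial and 3 of 10 macrophage markers rose in glomus cells, where 9.37% of all probes passed as higher. In neuroblasts 2 of 7 and 0 of 10 rose, where 18.4% of all probes did (macrophage markers in neuroblasts: 1 at an unadjusted p under 0.05). The mean of 5 glial markers ran from 4.91 to 5.53 in hypoxic glomus cells, against at most 4.79 in normoxic glomus cells, and from 5.77 to 6.07 in hypoxic neuroblasts, against 4.73 to 5.24 in normoxic neuroblasts, with no overlap in either population. Of these, 1 of 5 rose in glomus cells and 3 of 5 in neuroblasts. Of fibroblast markers 0 of 6 passed in either population (0 in glomus cells and 1 in neuroblasts at an unadjusted p under 0.05). Of pericyte and smooth muscle markers 1 of 5 fell in each, where 9.50% and 13.7% of all probes passed as lower. The part of these cells in the Ccnd1 result was not tested. In such sorted samples a change in the share of a cell type and a change in RNA per cell cannot be told apart.

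**Figure D2:**
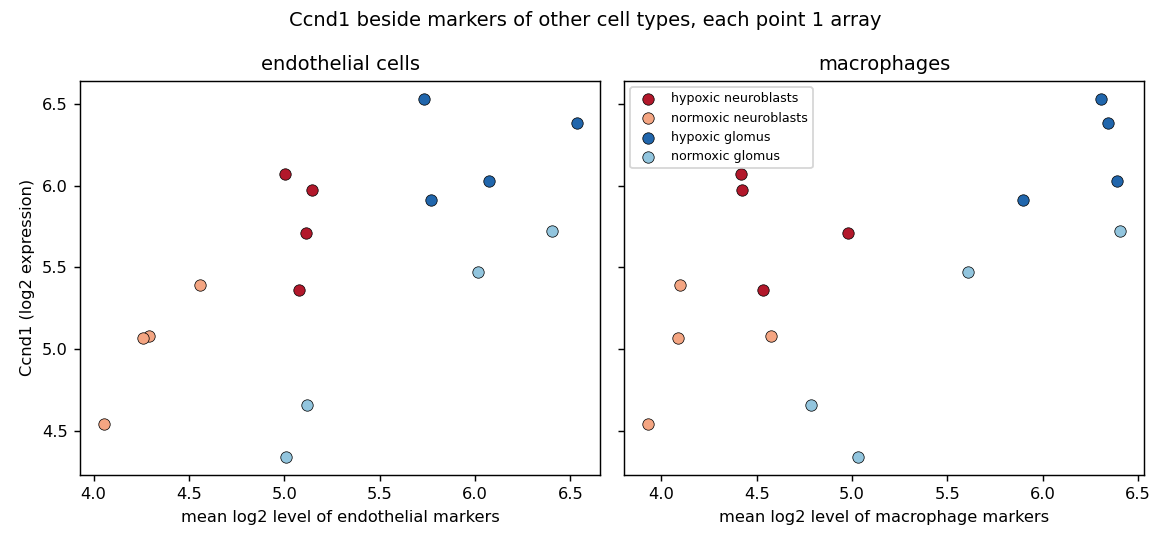
Ccnd1 (vertical, log2 expression) against the mean log2 level of 7 endothelial (left) or 10 macrophage (right) markers, 1 point per array. In normoxic glomus cells the 2 arrays with Ccnd1 at 5.72 and 5.47 are also the 2 with the higher marker levels; the 4 hypoxic glomus arrays lie at marker levels above those of all 8 neuroblast arrays in both panels.

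Ccnd2 (probe 17795115; GRCr8, chr4:161653048-161675422), which encodes cyclin D2, went the other way. It was at 8.62, 8.33, 8.60 and 8.54 in hypoxic glomus cells, against 9.23, 9.09, 9.22 and 9.20 in normoxic glomus cells. In neuroblasts it was at 7.46, 8.07, 7.19 and 8.06 in hypoxia, against 9.09, 9.44, 8.95 and 9.03 in normoxia. The hypoxic and normoxic arrays did not overlap in either population, as for 26.4% of all probes in glomus cells (15.2% with hypoxic arrays above and 11.3% below) and 28.0% in neuroblasts (16.3% above and 11.6% below). Of the 9 genes, 4 did not overlap in glomus cells, Ccnd1 above and Ccnd2, Cdk2 and Cdk6 below, and 2 in neuroblasts, Ccnd2 and Cdkn1b, both below. The fall was -0.66 ± 0.19 in glomus cells (adjusted p = 0.0226) and -1.43 ± 0.19 in neuroblasts (adjusted p = 3.63e-05), the last a 2.70-fold difference. The neuroblast fall passed in all 27 alternatives, between -1.71 and -1.23. In the same sorts 6 of 9 neuroblast markers fell with hypoxia and 1 rose (median -1.06), among them Sox4 (-2.22 ± 0.20), a transcription factor of immature neurons, and their mean ran from 6.69 to 7.04 in hypoxic neuroblasts, against 7.49 to 8.02 in normoxic neuroblasts. In glomus cells 1 of the 9 fell and 0 rose (median 0.03). Of all probes, 13.7% passed as lower and 18.4% as higher in neuroblasts, and 9.50% and 9.37% in glomus cells. The part of the neuroblast marker shift in the falls of Ccnd2 and Cdkn1b was not tested. The glomus call ended in 6, among them without normoxic glomus replicate 3 or 4 or hypoxic glomus replicate 2 (adjusted p up to 0.0654). Set against each other, neuroblasts minus glomus cells, these responses differed by -0.77 ± 0.27, an interaction that did not pass (unadjusted p = 0.0117, adjusted p = 0.585).

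The position of the cyclin D1 probe relative to the cyclin D2 probe was also read within each array, where a constant offset of an array cancels. A shift that depends on intensity does not cancel, and the probes differ in mean intensity (5.51 for Ccnd1 and 8.63 for Ccnd2). The median hypoxia difference was 0.17 in glomus cells and 0.25 in neuroblasts over all probes. Over the brighter 50% it was 0.02 and -0.03. This pair was chosen after its values had been seen and is described without a test, and only its shift between groups is read, since levels of different probes are not comparable. The within-array difference (Ccnd1 minus Ccnd2, log2) averaged -2.31 ± 0.35 in hypoxic glomus cells and -4.14 ± 0.60 in normoxic glomus cells (SD, n = 4 each). It averaged -1.92 ± 0.16 in hypoxic neuroblasts and -4.11 ± 0.27 in normoxic neuroblasts. The shift was 1.83 in glomus cells and 2.19 in neuroblasts, and all 8 hypoxic arrays, from -2.69 to -1.75, lay above all 8 normoxic arrays, from -4.75 to -3.51.

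**Figure D3:**
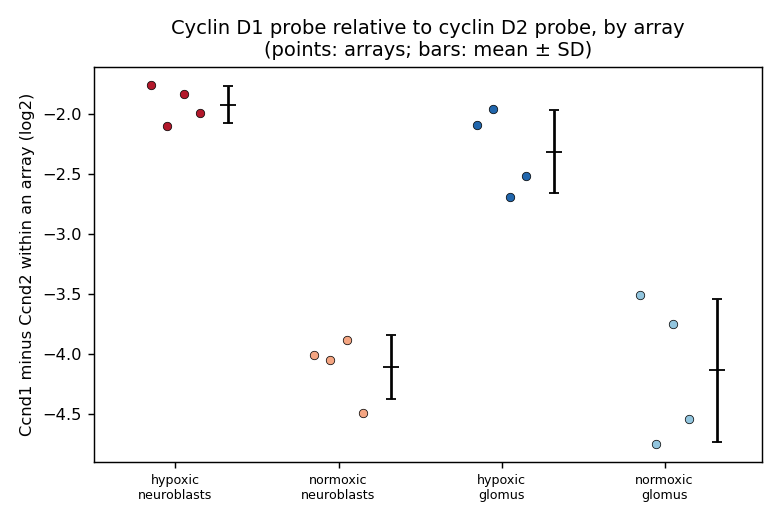
Difference between the Ccnd1 and Ccnd2 probes within each array (log2), by group, with the 4 arrays as points and the mean ± SD as bars. All hypoxic arrays lie between -2.69 and -1.75 and all normoxic arrays between -4.75 and -3.51.

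The E cyclins, which partner Cdk2 at the entry into DNA synthesis, did not pass in either population. Ccne1 was at 5.50, 5.85, 5.60 and 6.02 in hypoxic glomus cells, against 6.08, 6.01, 6.07 and 5.64 in normoxic glomus cells, a difference of -0.21 with a 95% interval from -0.60 to 0.18. In neuroblasts it ranged from 5.75 to 6.21 in hypoxia, against 5.45 to 6.11 in normoxia, a difference of 0.13 (interval -0.26 to 0.52), and this sign turned with each array centred on its median (-0.15). Its groups overlapped in every comparison. Ccne2 was at 5.68, 5.28, 4.12 and 5.02 in hypoxic neuroblasts, against 4.61, 4.17, 4.60 and 4.74 in normoxic neuroblasts. Hypoxic replicate 3 was the lowest of these 8 arrays and the other hypoxic arrays were the 3 highest. The difference was 0.50 ± 0.27 (adjusted p = 0.155) and became 0.80 (adjusted p = 0.0145) without that array. It did not pass in the other 26 of 27 alternatives, with a difference as low as 0.21 and an adjusted p of up to 0.644. In glomus cells Ccne2 ranged from 4.54 to 4.99 in hypoxia, against 4.11 to 4.82 in normoxia (0.28, interval -0.29 to 0.84).

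Among the kinases, Cdk2 (probe 17833060; GRCr8, chr7:1714392-1721964), the partner of the E and A cyclins, was at 5.29, 5.72, 4.90 and 5.69 in hypoxic glomus cells, against 6.14, 6.24, 6.79 and 7.29 in normoxic glomus cells. The groups did not overlap. It fell by 1.21 on the log2 scale (± 0.30, adjusted p = 0.00799, 2.32-fold), and the call held in all 27 alternatives, from -1.43 to -0.99. In neuroblasts Cdk2 was at 5.44, 5.41, 4.98 and 6.32 in hypoxia, against 5.59, 6.28, 6.22 and 6.26 in normoxia. Hypoxic replicate 4 was the highest of these 8, and the difference was -0.55 ± 0.30 (adjusted p = 0.157), or -0.81 (adjusted p = 0.0364) without it. The neuroblast difference did not pass in the other 26 of 27 alternatives, with a value as small as -0.36 and an adjusted p of up to 0.366. The difference between the populations in this response was 0.66 ± 0.42 and did not pass (adjusted p = 0.825).

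Cdk6 (probe 17789441; GRCr8, chr4:31592384-31784732), a partner of the D cyclins, was at 4.09, 5.25, 5.48 and 5.08 in hypoxic glomus cells, against 6.17, 6.15, 6.05 and 6.34 in normoxic glomus cells. The normoxic arrays were tight and all above the hypoxic arrays, of which replicate 1 was lowest. The fall was -1.20 ± 0.39 (adjusted p = 0.0399). The Cdk6 call ended in 9 of 27 alternatives, among them leaving out any 1 of the normoxic glomus arrays or hypoxic glomus replicate 1, 2 or 4 (adjusted p up to 0.137, with -0.91 without hypoxic glomus replicate 1). In neuroblasts it was at 3.36, 4.87, 5.80 and 4.78 in hypoxia, against 5.38, 5.27, 5.38 and 4.46 in normoxia, and the difference of -0.42 ± 0.39 (adjusted p = 0.403) became 0.03 without hypoxic neuroblast replicate 1.

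Cdk4 (probe 17828565; GRCr8, chr7:64771453-64774891), the other kinase of the D cyclins, was at 10.51, 10.59, 10.98 and 10.44 in hypoxic glomus cells, against 10.80, 10.75, 10.70 and 10.86 in normoxic glomus cells. These groups overlapped, with a difference of -0.15 (95% interval -1.07 to 0.77). The interval uses a spread pooled over the 4 groups. The SD was 0.24 in hypoxic and 0.07 in normoxic glomus cells, against 1.39 in hypoxic neuroblasts. In neuroblasts Cdk4 was at 7.95, 10.75, 10.75 and 10.66 in hypoxia, against 10.66, 10.80, 11.01 and 11.06 in normoxia. The lone low value belonged to hypoxic neuroblast replicate 1. The difference was -0.86 ± 0.44 (adjusted p = 0.133), and -0.16 ± 0.16 (adjusted p = 0.463) without that array.

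**Figure D4:**
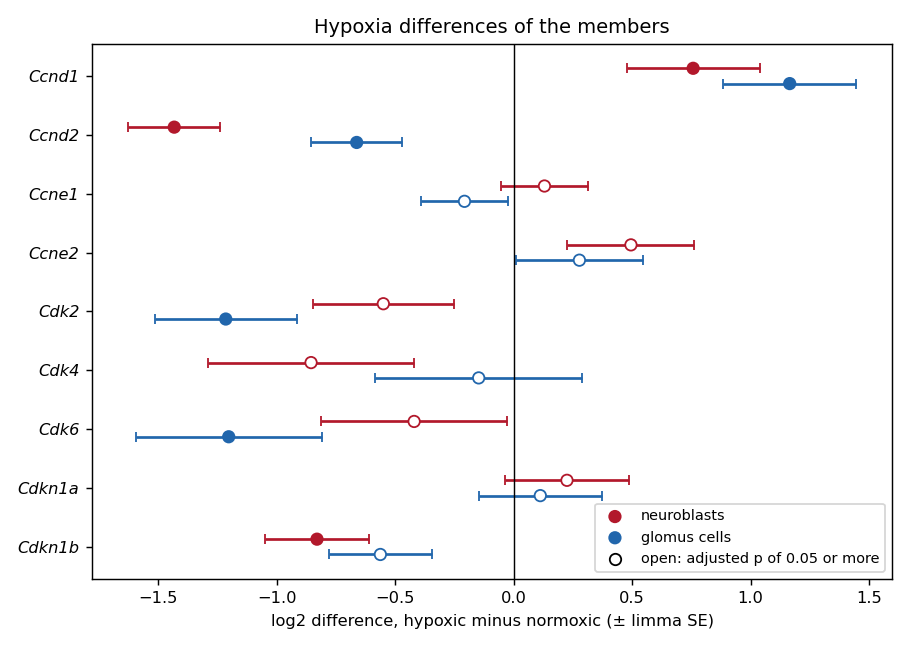
Hypoxic minus normoxic difference (log2, ± limma standard error) of the 9 genes in neuroblasts (red) and glomus cells (blue); filled points passed at an adjusted p under 0.05. Ccnd1 lies right of 0 and Ccnd2 left of 0 in both populations; Cdk2 and Cdk6 are filled in glomus cells alone and Cdkn1b in neuroblasts alone, and none of these differences between populations passed the interaction test.

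Promoter sequence is shown for the kinases Cdk2, which fell in hypoxic glomus cells, and Cdk4, which did not pass there. These differences were not tested against each other, and their 95% intervals overlap (-1.84 to -0.59 for Cdk2 and -1.07 to 0.77 for Cdk4). In neuroblasts neither gene passed. The sequences are from RefSeq (GRCr8), whose promoter table held 6 of the 10 genes, Ccnd3, Ccne1, Cdk2, Cdk4, Cdkn1a and Cdkn1b. Each is given on the gene's strand and stops where the annotated gene begins, at chr7:1721965-1722128 (minus strand) for Cdk2 and chr7:64771203-64771452 (plus strand) for Cdk4. Capitals mark matches, on either strand, to GGGCGG (GC box), CCAAT, the E box CACGTG bound by Myc family proteins, and the hypoxia response core ACGTG or GCGTG, which the E box contains.
Cdk2: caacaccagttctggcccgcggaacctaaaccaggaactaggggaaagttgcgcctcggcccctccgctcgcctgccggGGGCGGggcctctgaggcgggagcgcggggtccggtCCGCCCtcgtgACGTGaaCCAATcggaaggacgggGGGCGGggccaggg
Cdk4: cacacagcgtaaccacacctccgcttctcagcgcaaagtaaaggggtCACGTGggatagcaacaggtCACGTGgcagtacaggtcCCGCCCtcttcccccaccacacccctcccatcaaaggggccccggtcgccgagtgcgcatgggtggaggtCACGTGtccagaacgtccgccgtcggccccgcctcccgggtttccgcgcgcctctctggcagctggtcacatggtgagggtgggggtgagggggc
The Cdk4 promoter held 3 E boxes, 1 GC box and 6 hypoxia response core matches, which are the 3 E boxes read on both strands, and an E box was found in 5.59% of the 33469 promoters in the table over the same 250 bases before the start. The Cdk2 promoter held 4 GC boxes, 1 CCAAT and 1 hypoxia response core in its 250 bases, and of the GC boxes 1 lies in the unprinted bases inside the annotated gene. A GC box was found in 30.5% of promoters, CCAAT in 34.0% and a hypoxia response core in 36.7%. No E2F site of the forms TTTGGCGC, TTTCGCGC, TTTCCCGC or TTTGCCGC lay in these 250 bases of the 6 genes, where 1.73% of promoters held one. These are letter matches in 1 window and do not show binding.

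Of the inhibitors, Cdkn1b (probe 17787711; GRCr8, chr4:169491273-169496500), which encodes p27, was at 7.17, 6.79, 6.97 and 7.29 in hypoxic neuroblasts, against 7.37, 7.82, 8.39 and 7.96 in normoxic neuroblasts. The highest hypoxic array lay just under the lowest normoxic array, so the groups did not overlap. The fall was -0.83 ± 0.22 (adjusted p = 0.00844), held in each fit that left out 1 array, and missed the threshold with quantile normalization (-0.53, adjusted p = 0.0769). In glomus cells Cdkn1b was at 7.33, 7.59, 7.48 and 7.29 in hypoxia, against 7.51, 7.88, 8.25 and 8.30 in normoxia. The groups overlapped by normoxic replicate 1, and the difference of -0.56 ± 0.22 did not pass (adjusted p = 0.0828). It passed without normoxic glomus replicate 1 (-0.72, adjusted p = 0.0312), with each array centred on its median (-0.78, adjusted p = 0.0408) and with array weights (-0.66, adjusted p = 0.0139). It did not pass in the other 24 of 27 alternatives, with a difference as small as -0.39 and an adjusted p of up to 0.258.

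Cdkn1a, which encodes p21, a target of p53, was at 5.47, 5.37, 4.98 and 5.08 in hypoxic glomus cells, against 5.65, 4.41, 5.59 and 4.80 in normoxic glomus cells. It was at 5.25, 4.86, 4.52 and 4.99 in hypoxic neuroblasts, against 5.03, 4.86, 4.36 and 4.47 in normoxic neuroblasts. The groups overlapped in both populations. Normoxic glomus replicates 1 and 3 were the highest of their group in Cdkn1a. They also had the most endothelial, macrophage, fibroblast and glial signal in that group. The differences were 0.11 (95% interval -0.44 to 0.66) in glomus cells and 0.23 (interval -0.32 to 0.77) in neuroblasts, and both signs turned with centring and with quantile normalization.

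Between the populations, limma passed 0 of the 9 genes in normoxia, where 1.82% of probes passed (0.996% higher in neuroblasts and 0.828% lower), and 0 in hypoxia, where 0.283% passed (0.138% higher and 0.145% lower). In each, 1 gene of the 9 had an unadjusted p under 0.05. These comparisons share arrays with the hypoxia comparisons. In normoxia this was Cdk6, at 5.38, 5.27, 5.38 and 4.46 in neuroblasts, against 6.17, 6.15, 6.05 and 6.34 in glomus cells. These groups did not overlap, as for 7.39% of probes (3.37% with neuroblasts above and 4.03% below), and the difference was -1.05 ± 0.39 (unadjusted p = 0.0153, adjusted p = 0.299). In hypoxia it was Ccnd2, lower in neuroblasts by -0.83 ± 0.19 with no overlap, as for 4.48% of probes, of which 2.27% with neuroblasts above and 2.21% below (unadjusted p = 0.000485, adjusted p = 0.0904). Limma passed 0 of 9 for the interaction, where 0.0789% of probes passed (0.0263% higher and 0.0526% lower), and 1, Ccnd2, had an unadjusted p under 0.05. The interval of the population difference in normoxia was -0.62 to 0.56 for Ccnd1 and -0.46 to 0.35 for Ccnd2.

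The order of the 4 groups differed between genes. Ccnd2 was lowest in hypoxic neuroblasts (7.70 ± 0.44), next in hypoxic glomus cells (8.52 ± 0.13), then in normoxic neuroblasts (9.13 ± 0.22), and highest in normoxic glomus cells (9.19 ± 0.06; SD, n = 4 each). Of these neighbours the normoxic pair alone overlapped in range. Cdk6 was highest in normoxic glomus cells (6.18 ± 0.12), with no overlap with normoxic neuroblasts (5.12 ± 0.44), while hypoxic glomus cells (4.98 ± 0.61) and hypoxic neuroblasts (4.70 ± 1.01) overlapped with their neighbours. Ccnd1 ran from hypoxic glomus cells (6.21 ± 0.29) over hypoxic neuroblasts (5.78 ± 0.32) to normoxic glomus cells (5.05 ± 0.65) and normoxic neuroblasts (5.02 ± 0.35), each overlapping with the next. For the other 6 genes every neighbouring pair in the order overlapped in range.

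Other regulators of G1 and of the G1/S step moved in both directions. Of 30 measured genes of this list, 7 rose and 8 fell in glomus cells with hypoxia, and 9 rose and 9 fell in neuroblasts. Of all probes, 9.37% passed as higher and 9.50% as lower in glomus cells, and 18.4% and 13.7% in neuroblasts. With the dimmer 50% of probes left out, 35.9% passed in either direction in glomus cells and 48.5% in neuroblasts. The median difference of the list was -0.03 and 0.08 beside 0.17 and 0.25 over all probes. With each array centred on its median, 4 rose and 10 fell in glomus cells, and 4 rose and 11 fell in neuroblasts. Ccna2, which encodes cyclin A2, the partner of Cdk2 in S phase, rose by 1.70 ± 0.22 in glomus cells and by 2.67 ± 0.22 in neuroblasts (adjusted p = 6.56e-05 and 5.75e-07). In hypoxia Ccna2 was also higher in neuroblasts than in glomus cells by 1.20 ± 0.22 (adjusted p = 0.025), a call that ended in 8 of 27 alternatives, among them centring (adjusted p = 0.0554), the fit of only the arrays compared (adjusted p = 0.16) and, one at a time, without hypoxic glomus replicate 3 or 4 or hypoxic neuroblast replicate 2, 3 or 4 (adjusted p up to 0.0835). Ccnh, the cyclin of the kinase complex that activates CDKs, rose by 1.01 ± 0.17 in glomus cells and by 1.19 ± 0.17 in neuroblasts.

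Cdc37, a co-chaperone that loads kinases such as Cdk4 onto Hsp90, fell by -1.42 ± 0.23 in glomus cells and -1.61 ± 0.23 in neuroblasts. Ccng2, an unconventional cyclin linked to cell cycle exit, fell by -1.32 ± 0.28 in glomus cells and -2.37 ± 0.28 in neuroblasts. Myc, a transcription factor that promotes G1 progression, was higher in normoxic neuroblasts (6.38) than in normoxic glomus cells (4.78) by 1.60 ± 0.18 (adjusted p = 7.10e-05). Its relative Mycn was lower there by -0.91 ± 0.17 (adjusted p = 0.00589). With hypoxia Mycn fell in glomus cells (-0.91 ± 0.17, adjusted p = 0.00109) and Myc fell in neuroblasts (-0.73 ± 0.18, adjusted p = 0.00616). Each fall was read against normoxic arrays that also gave the population differences above. Myc did not pass in glomus cells (0.24, adjusted p = 0.378), nor Mycn in neuroblasts (0.02, adjusted p = 0.939). The interaction did not pass for Mycn (0.93, adjusted p = 0.252) or Myc (-0.97, adjusted p = 0.284).

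Named after their values had been seen, Rb1, the retinoblastoma gene, fell by -0.95 ± 0.27 in glomus cells and -1.83 ± 0.27 in neuroblasts, and Cdkn2c, which encodes the Cdk4 and Cdk6 inhibitor p18, rose by 1.18 ± 0.36 and 2.43 ± 0.36. Both glomus calls ended in some fits, that of Rb1 without normoxic glomus replicate 3 or hypoxic glomus replicate 1 (adjusted p up to 0.0788) and that of Cdkn2c with centring (adjusted p = 0.0905), with quantile normalization and, one at a time, without normoxic glomus replicates 2, 3 and 4 or hypoxic glomus replicates 2 and 3 (adjusted p up to 0.0925). Neither gene passed the interaction (adjusted p = 0.73 and 0.686).

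**Figure D5:**
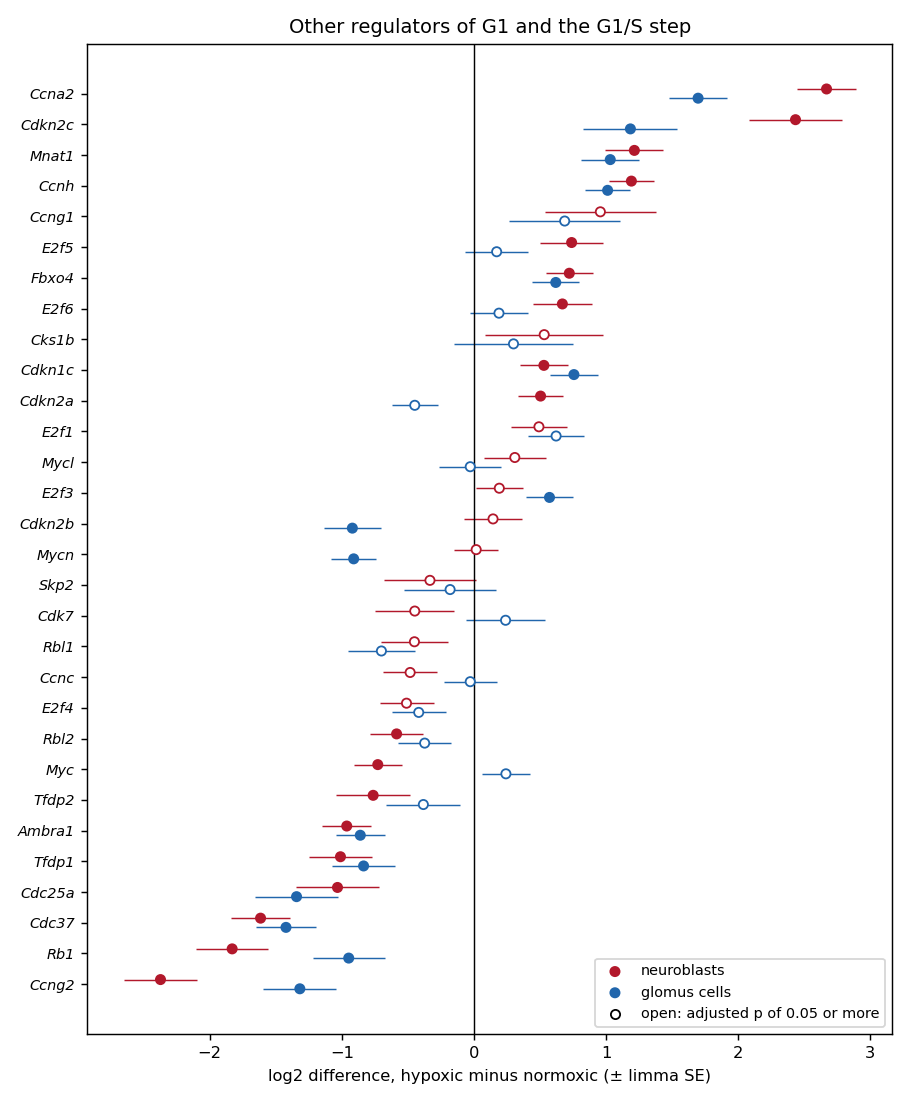
Hypoxic minus normoxic difference (log2, ± limma standard error) of the 30 other measured regulators of G1 and the G1/S step in neuroblasts (red) and glomus cells (blue), sorted by the neuroblast difference. Filled points passed at an adjusted p under 0.05; in neuroblasts 9 genes lie filled on each side of 0, and in glomus cells 7 lie right and 8 left.

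Genes of the later phases moved one way. Of 19 measured S, G2 and M phase genes, 10 rose and 0 fell in glomus cells and 16 rose and 0 fell in neuroblasts. Of all probes, 9.37% passed as higher in glomus cells and 18.4% in neuroblasts. The medians of the 19 genes were 0.79 and 1.43, or 0.57 and 1.15 after centring. Such genes were known to rise in these arrays when the list was chosen, so it is not independent support. Cdk1, the kinase of mitotic entry, rose by 3.09 ± 0.32 in glomus cells and by 4.51 ± 0.32 in neuroblasts. Without hypoxic neuroblast replicate 1 the neuroblast counts were 16 and 0 for this list and 9 and 7 for the G1 regulators.

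Among 13 measured p53 target genes, read as the companions of Cdkn1a, 0 rose and 2 fell in glomus cells, Tp53inp1 (-0.87 ± 0.23), a stress response gene, and Sesn1 (-0.94 ± 0.26), which encodes a stress-induced inhibitor of mTORC1 signalling. Leaving out hypoxic glomus replicate 1 or normoxic glomus replicate 2 ended the Sesn1 call there (adjusted p up to 0.0586). The Tp53inp1 call ended in 3 of 27 alternatives (adjusted p up to 0.053). In neuroblasts Sesn1 fell (-1.24 ± 0.26), and Ddit4 (0.85 ± 0.24), an inhibitor of mTORC1 induced by hypoxia, and Fas (0.59 ± 0.20), a death receptor, rose. The rises of Ddit4 and Fas did not pass with centring (adjusted p = 0.144 and 0.294), and that of Fas ended without any 1 of the normoxic neuroblast arrays 1, 2 and 3 or hypoxic neuroblast arrays 1 and 2. Of all probes, 9.37% passed as higher and 9.50% as lower in glomus cells, and 18.4% and 13.7% in neuroblasts. The few calls among the 13 genes are not far from these shares. The medians of the 13 genes were 0.02 in glomus cells and 0.08 in neuroblasts, or -0.19 and -0.20 after centring.

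The genes whose pattern over the 16 arrays was most like that of a member were sought for the 3 members with the widest spread of group means, among 10930 other genes whose probe mean was at or above the median of all probes. For Ccnd2 they were Nfatc3, Klhl42 and Zzef1 (Pearson r of 0.97, 0.96 and 0.95, and 0.85, 0.87 and 0.74 after group means were subtracted). For Cdk6 they were Cpxm2, Gpr158 and Fastkd5 (0.88, 0.85 and 0.84, and 0.82, 0.74 and 0.86). For Ccnd1 they were Ccl2, which encodes a monocyte-attracting chemokine, Pdlim1 and Tmem204 (0.90, 0.88 and 0.86, and 0.83, 0.82 and 0.72). These are the highest of many values and serve as a description, and the arrays share the oxygen condition and the sort.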

How the data were processed

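Affymetrix arrays of biotinylated cDNA were analysed. The submitters' processing notes name Transcriptome Analysis Console, with no version. How the authors corrected background and normalized is not stated in any label or header. The deposited values, which run from 0.87 to 13.33, were taken as log2 from that range. The table holds no detection calls, and the number of arrays limits precision.

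Of 30429 probes, 18511 named 1 gene in the platform annotation, 575 several and 11343 none. Per gene, the single-gene probe with the highest mean over 16 arrays was used. A mean per group was fitted to all probes with limma 3.58.1 (lmFit, eBayes, 12 residual degrees of freedom) in R 4.3.3, with two-sided tests and Benjamini-Hochberg adjustment over all probes within a comparison; the fit was tested on simulated data. Figures used matplotlib 3.10.9.

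The members and lists were chosen with earlier results of these data known. All members were named, up to 4 genes with the smallest p from each other list, and the 3 most correlated genes for 3 members; Rb1, Cdkn2c, Ccng2 in glomus cells and Myc with hypoxia in neuroblasts were added after their values were seen.

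Alternatives were centring, quantile normalization, leaving out the dimmest 25% or 50% of probes, eBayes with trend and robust settings, a fit of only the arrays compared, weighted arrays, a replicate block, averaged probes, a 2-fold threshold, an adjusted p of 0.01, and leaving out each array. After seeing the data, counts of the other lists were added for centring, for quantile normalization and for leaving hypoxic neuroblast replicate 1 out.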

Additional observations from a re-analysis of the deposited data

Results flagged for a closer look

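Of 40 groups of 4 arrays examined (9 genes and the within-array cyclin D difference, each in 4 groups), 4 held an array far from the other 3, where chance gives about 1 in 20. Cdk4 was at 7.95 in hypoxic neuroblast replicate 1 and between 10.66 and 10.75 in the other hypoxic neuroblasts, the array that also correlated least with its group. Cdk2 was at 5.59 in normoxic neuroblast replicate 1 and between 6.22 and 6.28 in the others. Cdk6 was at 4.46 in normoxic neuroblast replicate 4 and between 5.27 and 5.38 in the others. Ccne1 was at 5.64 in normoxic glomus replicate 4 and between 6.01 and 6.08 in the others.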

How the results depend on the processing

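Over 27 alternatives, the glomus rise of Ccnd1, the glomus fall of Cdk2 and the neuroblast fall of Ccnd2 kept direction and call. The count of genes that rose in neuroblasts (1, Ccnd1) was 0 with centring, quantile normalization, array weights, the replicate block, a 2-fold threshold and an adjusted p of 0.01. The count that fell in neuroblasts (2) was 1 with quantile normalization and with the 2-fold threshold. The count that fell in glomus cells (3) was 1 with quantile normalization and with an adjusted p of 0.01. In normoxia, 1 gene was lower in neuroblasts (Cdk6) with array weights and with only the arrays compared, against 0. Leaving out 1 array gave 0 to 2 rises and 2 to 3 falls in neuroblasts, and 1 rise and 1 to 3 falls in glomus cells. The cause of these changes was not tested.

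The replicate number as a block ended the neuroblast call of Ccnd1 (adjusted p = 0.0517) and changed no other call of the 9 genes. Same-numbered arrays correlated between -0.10 and 0.20 in their deviations from group means. These values cannot show whether equal numbers mark samples of the same rats or pools, which the labels do not state.

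Signs that turned were those of differences that did not pass. With centring these were Cdkn1a in glomus cells (-0.10) and in neuroblasts (-0.0575), Ccne1 in neuroblasts (-0.15) and Mycn in neuroblasts (-0.27), against 0.02 for Mycn as reported. With quantile normalization they were Cdkn1a in glomus cells (-0.0008), in neuroblasts (-0.0138) and in the interaction (-0.013), Ccnd2 between the normoxic populations (0.0125) and Mycn in neuroblasts (-0.26). With array weights they were Cdk6 in neuroblasts (0.0236) and between the hypoxic populations (0.12), Ccnd1 between the normoxic populations (0.014), the Cdkn1a interaction (-0.0456) and Mycn in neuroblasts (-0.0308).

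Leaving out 1 array also turned some. Between the normoxic populations the ranges over these fits were -0.26 to 0.20 for Ccnd1, -0.16 to 0.0017 for Ccnd2, -0.0933 to 0.15 for Ccne2 and -0.27 to 0.0717 for Cdkn1b. Between the hypoxic populations they were -0.12 to 0.32 for Cdk2, -0.84 to 0.09 for Cdk4 and -0.64 to 0.17 for Cdk6. With hypoxia they were -0.12 to 0.29 for Cdkn1a in glomus cells, -0.79 to 0.0275 for Cdk6 in neuroblasts and -0.0717 to 0.135 for Mycn in neuroblasts. For the interaction they were -0.0008 to 0.52 for Ccne2 and -0.0667 to 0.35 for Cdkn1a.

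Across all probes, 2852 passed as higher and 2892 as lower in hypoxic glomus cells, and 5596 and 4159 in hypoxic neuroblasts. With centring these were 1370 and 3783, and 1826 and 5464. With quantile normalization those of neuroblasts were 3278 and 3701. With the dimmer 50% of probes left out they were 2342 and 3122, and 3156 and 4224. The median of all probes was 0.17 and 0.25 higher in hypoxia. Since the normalization is not stated, changes of that size cannot be told apart from scaling between arrays. The fit limited to the arrays compared was not made for the interaction, which needs all 4 groups.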
